A study of Andrographis paniculata with 12 samples.

Results

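Leaves of the medicinal plant Andrographis paniculata were compared at 24 h of methyl jasmonate (MeJA) treatment with the treated leaves taken just before and just after them, at 12 and 48 h. Each assembled gene's 24 h difference is its log2(level + 1) at 24 h minus the mean of those at 12 and 48 h. A positive difference places 24 h above that mean and a negative one below it, also where 24 h lies between its neighbours. The difference was computed for the 29399 of 32064 assembled genes whose highest level over the 4 times was at least 1. The comparison rests on 9 of the 12 samples of the study, labelled as 3 biological replicates each of leaves treated for 24 h, for 12 h and for 48 h. The other 3 are leaves at 0 h of treatment, which the difference does not use. No untreated leaves were taken at 12, 24 or 48 h, and the labels give no dose, leaf age or clock time.

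The values are 1 mean per gene and time, which the authors made from the replicates before they deposited them. Every level below is such a mean on the authors' normalised signal scale, so it has no error and no replicate number, and no difference could be tested against the spread between plants. Size alone decided a call. Every fold below is of level + 1, so low levels can differ by more than 2-fold and still count as within it. A gene counts as higher or lower at 24 h where the log2 difference is 1 or more either way, which is 2-fold, and as beyond both neighbours where 24 h lies 2-fold or more above both 12 and 48 h, or below both. Both steps use the same 24 h mean, so an error in that mean moves them together. The depth behind a level is unknown. In whole leaves, fewer cells of a type and less RNA per cell cannot be told apart.

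Methyl jasmonate is the volatile ester of the wound and defence hormone jasmonic acid. In well-studied plants, jasmonoyl-isoleucine leads the receptor COI1 to JAZ (TIFY) repressors, whose breakdown frees MYC factors to switch on defence genes. Many leaf genes also follow the daily cycle through clock factors such as LHY. The leaves at 12 h could have been taken at another hour of the day than all the others, so hour of day and stage of treatment cannot be told apart in a step between 12 and 24 h. Plants short of phosphate are known to switch on a further programme, in which SPX proteins sense the supply, transporters and phosphatases gain phosphate, and phospholipids are partly replaced by galactolipids.

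Most genes had similar levels at the 3 treated times. Of the 29399 genes, 21953 (74.7%) lay within 2-fold of both neighbours at 24 h. The median 24 h difference was 0.02 and the 25th and 75th percentiles were -0.25 and 0.30. At 24 h 1626 genes (5.53%) were higher than the mean of the neighbours and 886 (3.01%) were lower. The surplus of higher genes depended on how the neighbours were averaged: with their levels averaged before the log was taken, 1059 genes were higher and 1460 lower. Just inside the rule stood a hit to the factor bHLH115 (TR16474|c0_g3), with levels of 12.9, 21.9 and 8.39 at 12, 24 and 48 h and a difference of 1.00. Just outside stood a hit to High mobility group B protein 6 (TR44392|c0_g3) at 23.4, 21.8 and 4.32.

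A large difference from the mean was mostly a step from 12 h. Of the 1626 higher genes, 1037 (63.8%) were within 2-fold of their 48 h level at 24 h, while 128 were within 2-fold of their 12 h level. In 989 of them (60.8%) the 12 h level was 2-fold or more below that at 0 h, while the median difference between 12 and 0 h over all genes was 0.06. Of the 886 lower genes, 589 (66.5%) were within 2-fold of 48 h. A peak or dip in the strict sense was rarer: 444 genes (1.51%) were at least 2-fold above both neighbours and 203 (0.690%) at least 2-fold below both. In a further 2565 genes (8.72%) 24 h was 2-fold above 12 h and level with 48 h, and in 2863 (9.74%) it was 2-fold below 12 h and level with 48 h. With the 74.7% within 2-fold of both neighbours, most of all genes were level with 48 h, whether called or not.

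**Figure D1:**
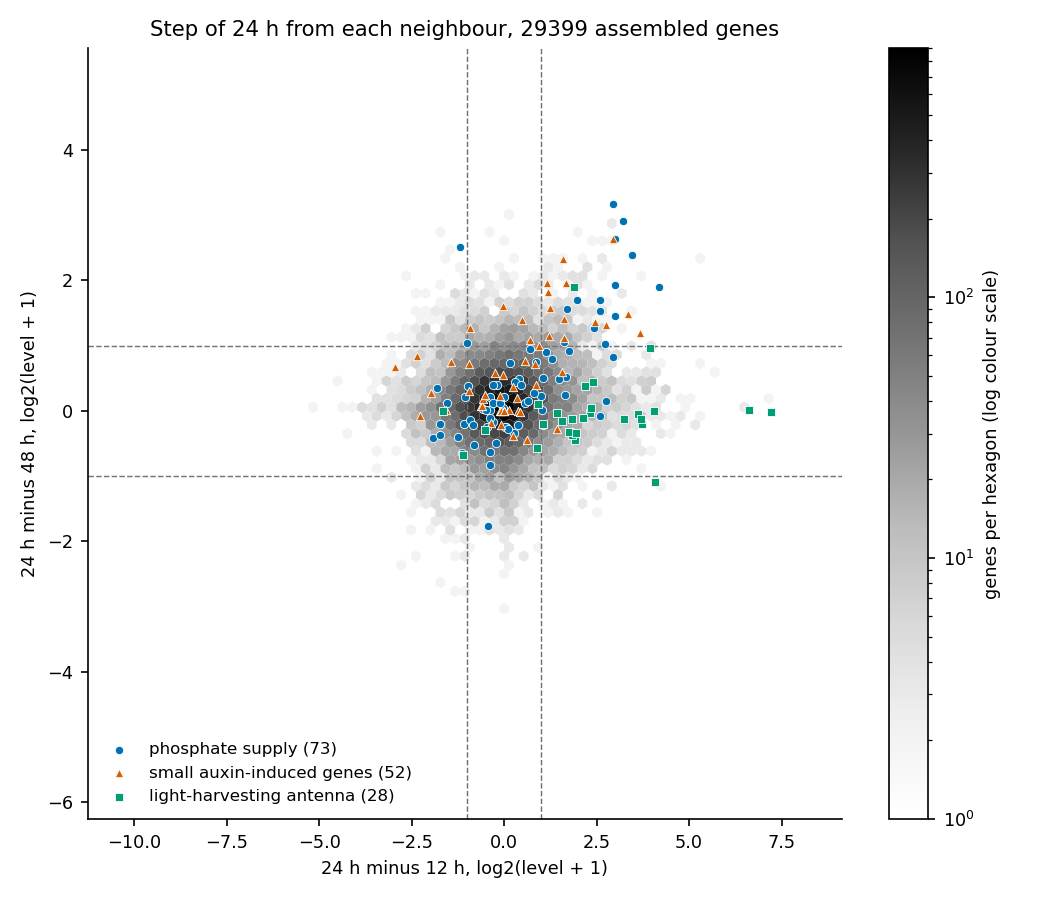
Step of 24 h from 12 h (x axis) against step of 24 h from 48 h (y axis), both on the log2(level + 1) scale, with grey hexagons for the number of genes on a log colour scale, dashed lines at 2-fold and coloured points for the members of 3 lists. The 444 genes above both neighbours fill the upper right corner, where 14 phosphate supply and 13 small auxin-induced genes lie, and the antenna genes spread to the right near 0 on the y axis.

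Among annotated genes with a mean of at least 10 over the 3 treated times, 5 had the largest smaller step above their neighbours. A hit to the 2-oxoglutarate-dependent dioxygenase AOP1.2 (TR18171|c0_g1) had levels of 0.54, 1.79, 67.8 and 3.11 at 0, 12, 24 and 48 h, a difference of 4.34. Its smaller step, 4.07 from 48 h, was the largest of the 5. A hit to inorganic pyrophosphatase 2 (TR82349|c3_g1), of a family that releases phosphate from pyrophosphate, stood at 1.36, 4.46, 283 and 39.2. Chloroplast 3-isopropylmalate dehydrogenase (TR84159|c0_g1), an enzyme of leucine synthesis, stood at 5.91, 0.94, 39.2 and 4.24. Phospholipase D p1 (TR26405|c0_g1), which splits membrane phospholipids, stood at 3.59, 2.24, 121 and 22.3. The SPX domain-containing protein 3 hit (TR18287|c0_g1) stood at 9.77, 8.51, 102.9 and 18.9. The rule put 24 h above 12 and 48 h in these 5 genes. In each it was also above 0 h, as in 71.4% of the 444 strict peaks.

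Several phosphate supply genes were among the strict peaks. Of 73 such genes kept, 14 (19.2%) were at least 2-fold above both neighbours, beside 1.51% of all genes, and none was at least 2-fold below both. The list as a whole was little displaced, with a median difference of 0.34 beside 0.02 for all genes: 21 members were higher than the mean of the neighbours, 3 were lower and 29 had a difference below 0. The 14 genes lie on 12 assembly components, and their 24 h differences ran from 1.34 to 3.07. At 0 h, which the difference does not use, their levels ran from 0 to 79.4. On the log2(level + 1) scale, 12 of the 14 lay within 1 of 0 h at 12 h. At 48 h 8 of the 14 were still 1 or more above 0 h on that scale, and the other 6 were within 1 of it. The added 1 hides larger ratios between levels below 1. Apart from SPX3, the genes named in the next 3 paragraphs were chosen after their values were seen.

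SPX proteins bind inositol pyrophosphates and hold back the phosphate starvation regulators in Arabidopsis and rice. Of 6 hits, 2 peaked at 24 h. Beside SPX3, the SPX domain-containing protein 2 hit (TR33231|c0_g1) had levels of 16.8, 37.8, 309.8 and 80.2 at 0, 12, 24 and 48 h. It lay 3.0 above 12 h and 1.94 above 48 h on the log2 scale. Of 9 inorganic phosphate transporters, which carry phosphate across membranes, 5 were above both neighbours, all of the PHT1 type, and 1 was lower than the mean of the neighbours. The 5 were at low levels: the PHT1-3 hit (TR38474|c0_g1) stood at 0, 0.70, 14.9 and 1.11, the PHT1-7 hit (TR71205|c0_g1) at 0.14, 0.49, 10.8 and 0.90, and the PHT1-4 hit (TR61804|c0_g1) at 0.08, 0.38, 9.69 and 0.19. The other 2, both named PHT1-5, lie on 1 component (TR33697|c0), may share reads, and reached 5.89 and 2.93 at 24 h. The 24 h level was also above that at 0 h in all 5. The lower one, another PHT1-4 hit (TR85264|c2_g1), was more abundant, at 73.9, 35.3, 25.9 and 90.4. The summed level of the 9 was 130, 43.7, 121.5 and 140.4 at 0, 12, 24 and 48 h and not highest at 24 h.

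The enzymes that free phosphate from organic compounds also had peaks at 24 h. The glycerophosphodiesterase GDPD1 hit (TR61771|c1_g1), which breaks down deacylated phospholipids, stood at 12.1, 37.6, 706 and 189 and had the highest 24 h level of the 14. The GDPD6 hit (TR59205|c2_g7) stood at 20.6, 29.4, 92.4 and 43.7, and the other 9 of the 11 glycerophosphodiesterases were not 2-fold above both neighbours. A glycerol-3-phosphate transporter (TR47267|c0_g1) stood at 79.4, 51.5, 421 and 153. Of 28 purple acid phosphatases, which release phosphate from organic esters, 4 peaked. The hits to purple acid phosphatase 15 (TR86843|c1_g1) stood at 8.36, 15.1, 95.9 and 28.7, and those to purple acid phosphatase 2 (TR38219|c0_g1) at 12.9, 14.6, 102.4 and 49.7. The remaining pair lie on 1 component (TR80677|c3). Among the 8 PHO1-type exporters and the 6 SPX membrane proteins none was 2-fold above both neighbours.

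Enzymes of the exchange of phospholipids for galactolipids were looked at afterwards, because Phospholipase D p1 ranked high, so their share says nothing independent. Of 33 such genes 4 (12.1%) were above both neighbours and none below both, beside 1.51% and 0.690% of all genes. A second Phospholipase D p1 hit (TR48310|c0_g2) stood at 3.93, 0.86, 76.6 and 13.9. Monogalactosyldiacylglycerol synthases, which make galactolipids, gave the other 2: the type 3 hit (TR21172|c4_g3) stood at 8.69, 13.1, 39.6 and 14.1 and the type 2 hit (TR18257|c0_g1) at 11.7, 4.98, 15.5 and 5.43. In the type 2 hit 24 h was within 2-fold of 0 h, whereas both phospholipases were more than 2-fold above it.

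**Figure D2:**
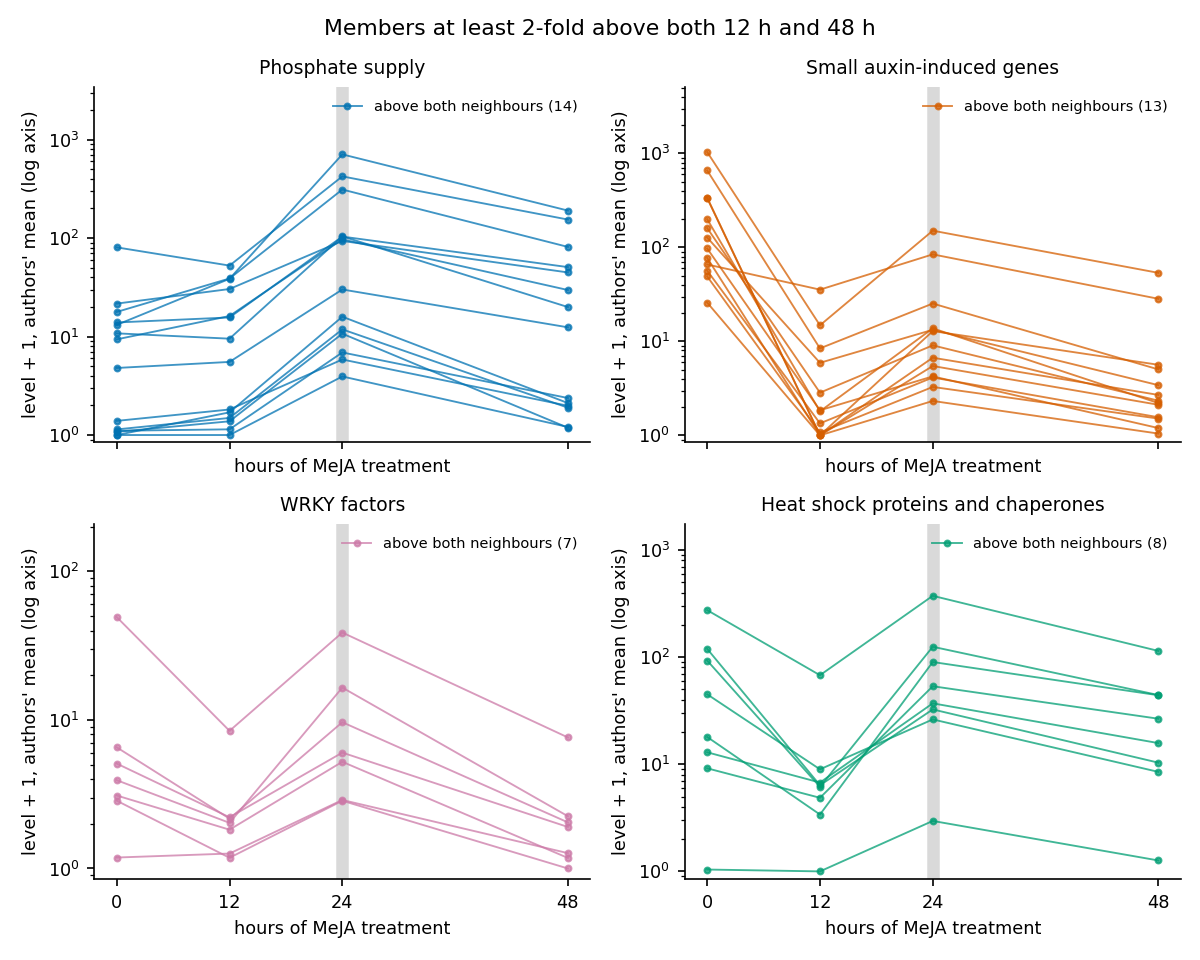
Level + 1 (the authors' mean, log axis) against hours of MeJA treatment for every member of 4 lists at least 2-fold above both neighbours at 24 h, 1 line per assembled gene, with 24 h shaded. The 14 phosphate supply genes are lower at 0 and 12 h than at 24 h, whereas 12 of the 13 small auxin-induced genes start far higher at 0 h than at 24 h.

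Small auxin-induced (SAUR-type) genes, which are linked with cell expansion, also peaked, but from a deep trough. Of 52 kept, 13 (25%) were above both neighbours at 24 h and none was below both, beside 1.51% and 0.690% of all genes. The list's median difference was 0.19. Of the 13, 3 had a mean of at least 10 over the treated times, and their 24 h levels ran from 1.32 to 149.6. With a pseudocount of 10 in place of 1, 3 small auxin-induced genes were above both neighbours. An Auxin-induced protein 15A hit (TR81280|c1_g1) had levels of 1033, 13.8, 149.6 and 52.6 at 0, 12, 24 and 48 h, and a further hit (TR44275|c4_g1) stood at 64.8, 34.5, 83.3 and 27.4. The first stayed below its 0 h level at all 3 treated times, while the second was within 2-fold of it at 24 h. The 13 genes lie on 10 components and their differences ran from 1.18 to 2.79. Over all 29399 genes 3932 (13.4%) were at least 2-fold higher at 24 h than at 0 h and 4966 (16.9%) lower. By the same measure 39 of the 52 small auxin-induced genes, and 12 of the 13 peaks, were lower at 24 h than at 0 h, whereas each of the 14 phosphate supply peaks was higher. These comparisons share the 24 h means with the 24 h difference.

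Expansins, which loosen cell walls, and other auxin response genes gave fewer peaks than the small auxin-induced genes. The Expansin-A8 hit (TR86988|c3_g1) stood at 1000.2, 79.1, 251 and 14.1, so its 24 h level lay 4.06 above 48 h on the log2 scale. Expansin-A3 (TR50412|c0_g1) stood at 31.0, 13.1, 27.5 and 6.6. Of 48 wall-loosening genes 3 (6.25%) were above both neighbours and 1 (2.08%) was below both, beside 1.51% and 0.690% of all genes. The list's median difference was -0.05. Of 79 auxin response and transport genes 4 (5.06%) were above both and none below both. One of the 4 was an Auxin-responsive protein IAA3 hit (TR66674|c5_g2, chosen after its values were seen), at 339, 15.9, 42.8 and 15.

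Among transcription factors, the peaks of the WRKY family were hits to 3 of its members. Of 83 WRKY genes, 7 (8.43%) were above both neighbours and none was below both, beside 1.51% and 0.690% of all genes. All 7 were hits to WRKY70, WRKY54 or WRKY18, which in Arabidopsis act in salicylic acid signalling, and only 11 WRKY genes bear those names. The 3 names were grouped after the values were seen, and the 7 genes lie on 4 components. A WRKY70 hit (TR66746|c4_g1) had levels of 48.3, 7.44, 37.8 and 6.63 at 0, 12, 24 and 48 h, and a WRKY18 hit (TR48264|c0_g1) 2.93, 1.03, 15.5 and 1.25. The first was back at about its 0 h level at 24 h, and the second above it. The other 5 reached 8.66 at most at 24 h, and with a highest level of at least 10 required, 2 of the 7 were counted. Of 59 NAC genes 3 (5.08%) were above both and 1 (1.69%) was below both. The NAC domain-containing protein 2 hit (TR32385|c1_g1) stood at 4.22, 16.7, 101.9 and 19, and the NAC78 hit (TR49201|c2_g1) at 10.6, 12.6, 62.9 and 13.5. These WRKY and NAC genes were also chosen after their values were seen.

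Heat shock proteins and their helpers peaked in a small subset. Of 184 genes 8 (4.35%) were above both neighbours and none was below both, beside 1.51% and 0.690% of all genes. The median difference was 0.13. An 18.1 kDa class I heat shock protein hit (TR46528|c0_g2), a small chaperone that binds unfolding proteins, stood at 91.8, 5.16, 124 and 43.2. The Heat shock protein 83 hit (TR68194|c2_g1), of the HSP90 type, stood at 17, 2.39, 88.9 and 43.1. The first was close to its 0 h level at 24 h, and the second more than 2-fold above it. By subgroup 3 of 9 small heat shock proteins, 2 of 16 BAG regulators, 1 of 31 HSP70 and HSP90 proteins and 2 of 103 DnaJ proteins were above both neighbours. The hit to BAG regulator 6 (TR26793|c0_g1) was just inside the rule, at 1.01 above 48 h. A hit to Cysteine proteinase inhibitor 5 (TR27652|c1_g4) was just outside it, at 115, 331 and 169 at 12, 24 and 48 h.

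Ethylene genes gave 4 peaks among 52 (7.69%), beside 1.51% of all genes. Of 14 ACC oxidases, which make ethylene, 2 were above both neighbours. One (TR16485|c1_g1) stood at 267, 347, 913 and 359 and the other (TR32138|c0_g2) at 133, 196, 802 and 372. Of 16 EIN3-type factors, which act downstream of the ethylene receptors, 2 were above both as well, at 8.30 (TR23788|c1_g1) and 10.0 (TR57918|c4_g1) at 24 h, against 13 and 22.3 at 0 h. Both oxidases were more than 2-fold higher at 24 h than at 0 h, and neither EIN3-type hit was. These 4 genes were chosen after their values were seen.

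**Figure D3:**
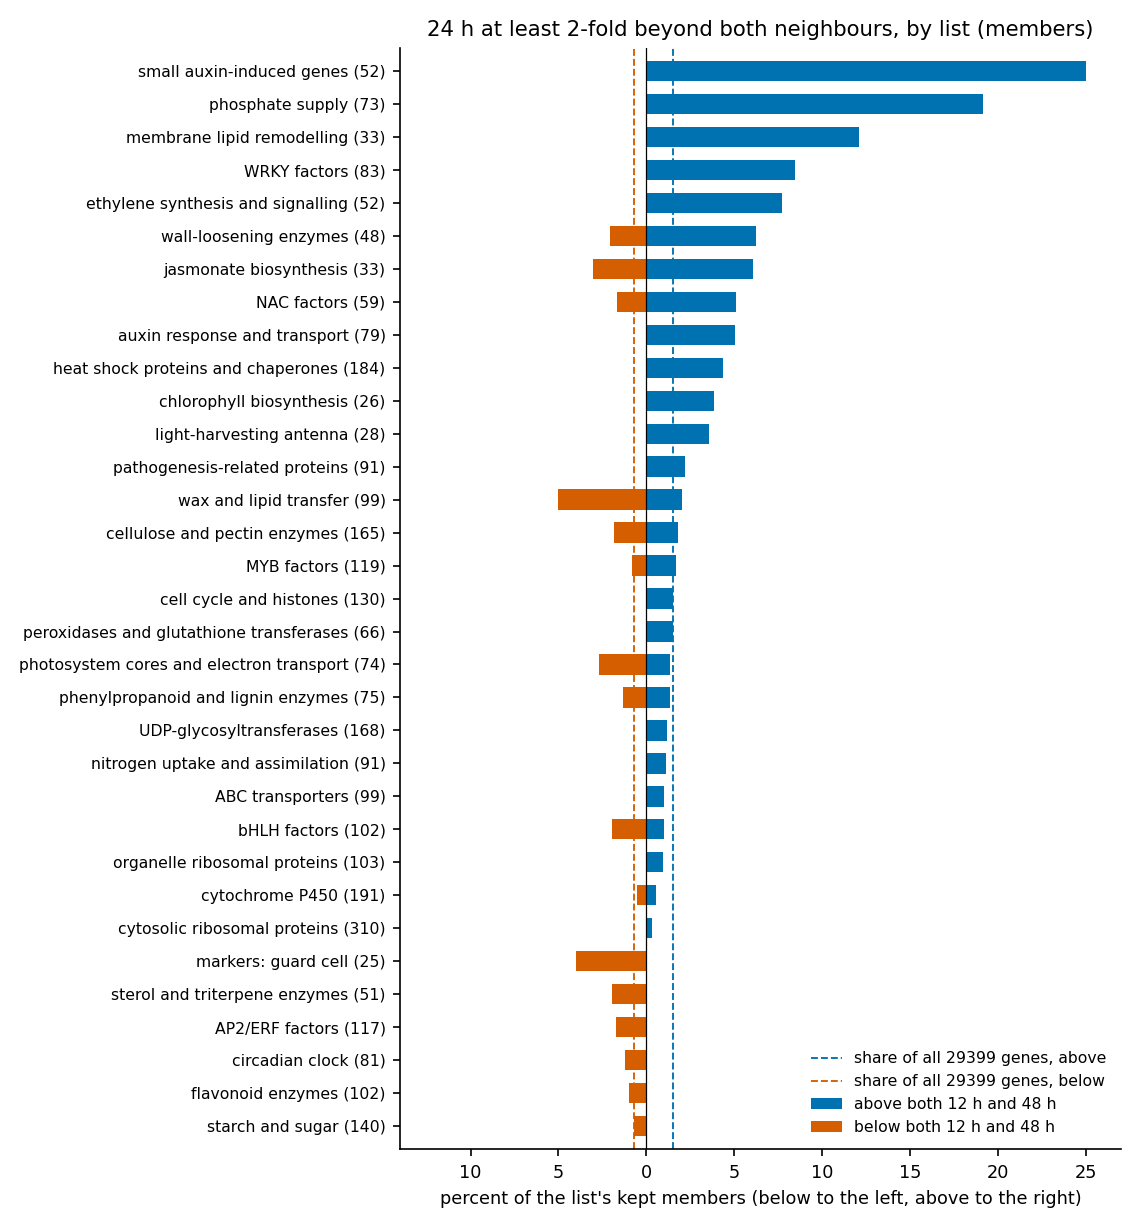
Percent of the kept members of each list at least 2-fold above both neighbours at 24 h (bars to the right) or below both (bars to the left), for the 33 lists with at least 20 members and a member beyond both, with dashed lines at the shares of all 29399 genes, 1.51% and 0.690%. The bars of the small auxin-induced genes and phosphate supply reach 25% and 19.2%, and the wax and lipid transfer list has the longest bar to the left. Numbers of members are in parentheses.

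Jasmonate signalling genes had no strict peak or dip at 24 h, and 3 synthesis genes had one. None of 38 jasmonate signalling genes was beyond both neighbours, beside 1.51% of all genes above both and 0.690% below both. A list of this size can hold none at those shares. Its median difference was 0.20, although its median difference between 24 h and 0 h was 2.58 on the same scale. The TIFY 6B hit (TR67092|c1_g4) stood at 0, 7.22, 47.6 and 30.8, and the receptor COI1 hit (TR19628|c2_g1) at 22.2, 4.72, 17.3 and 13.6. The first was higher than the mean of its neighbours and the second just under the rule, at 0.999. In jasmonate synthesis 2 of 33 genes (6.06%) were above both and 1 (3.03%) was below both, beside 1.51% and 0.690% of all genes. A hit to the chloroplast 13-lipoxygenase 3-1 (TR65609|c2_g1), which starts the pathway, stood at 4.72, 106.9, 19.7 and 54.2. The lipase hit Phospholipase A(1) LCAT3 (TR49069|c0_g2) stood at 13.9, 13.8, 55.6 and 25.7. The lipoxygenase stayed above its 0 h level at all 3 treated times.

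Terpenoid genes, of interest because the herb's diterpene lactones come from this pathway, were mostly level with 48 h, as were most genes. Both MEP pathway genes higher than the mean of their neighbours were within 2-fold of 48 h, as were 63.8% of all higher genes. The 4-hydroxy-3-methylbut-2-enyl diphosphate reductase (HDR) hit (TR64335|c4_g1) stood at 213, 37.3, 674 and 848. The 1-deoxy-D-xylulose-5-phosphate synthase (DXS) hit (TR49753|c1_g1) stood at 259, 107.1, 349 and 232. HDR makes the pathway's end products, and DXS catalyses its entry step. The ent-copalyl diphosphate synthase hit (TR66725|c19_g4), of the enzyme class that forms the labdane diterpene skeleton, stood at 11.2, 25.4, 116 and 79.9. The 5 diterpene synthase hits lie on only 2 components and may share reads, and 3 of them had a mean of at least 10 over the treated times. Their median difference was 0.82, and 24 h lay 2.01 above 12 h and 0.08 above 48 h at the median. With pieces of 1 component summed, the difference of the ent-copalyl gene was 0.84. Of the 12 other terpene synthases 1 was higher than the mean of its neighbours, a Gamma-cadinene synthase hit (TR39984|c2_g1) at 12.9, 9.59, 42.5 and 41.6. Its difference was 1.03, and 0.99 with the columns scaled by median of ratios.

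None of 17 mevalonate and 20 prenyl diphosphate genes was above both neighbours, beside 1.51% of all genes. Lists this short can hold none at that share. The HMG-CoA synthase hit (TR39861|c0_g1) stood at 27.6, 96.1, 34.2 and 31.2. The 2 mevalonate genes below both were HMG-CoA reductase hits (TR3750|c0_g1 and TR86599|c0_g1, chosen after their values were seen), at 0.40 and 0.55 at 24 h. The more abundant reductase hit (TR82364|c1_g1) stood at 7.17, 26.2, 26.1 and 14.9, level with 12 h. The geranylgeranyl pyrophosphate synthase hit (TR18674|c2_g3), which makes the precursor of diterpenes, stood at 100.4, 868, 274 and 325. Its difference of -0.95 was just under the rule, and it was -1.12 with the neighbours' levels averaged before the log. The Solanesyl diphosphate synthase 1 hit (TR45514|c0_g1) stood at 45.9, 9.21, 5.03 and 15.8, but the sum with its sister piece on the component gave a difference of 0.20 in place of -1.12.

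Defence products did not share 1 shape. A Cysteine proteinase inhibitor 5 hit (TR27652|c1_g2) stood at 40.8, 6.6, 223 and 204, level with 48 h. The Factor Xa inhibitor BuXI hit (TR83819|c4_g1), a Kunitz-type inhibitor, was highest at 48 h, at 16.3, 11976, 14436 and 40279. Caffeoylshikimate esterase (TR40885|c0_g1), an enzyme of lignin synthesis, was above both neighbours, at 50.6, 3.65, 71.0 and 32.0. The Cinnamoyl-CoA reductase 2 hit (TR14301|c0_g1), of the same pathway, was level with 48 h, at 15.4, 2.52, 38.1 and 50.2. Of the 75 phenylpropanoid and lignin genes 1 (1.33%) was above both and 1 (1.33%) below both, beside 1.51% and 0.690% of all genes.

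Antenna and clock genes that were higher than the mean of their neighbours were mostly level with 48 h, as were 63.8% of all higher genes. Of 28 light-harvesting antenna genes, whose proteins bind chlorophyll around the photosystems, 15 (53.6%) were higher at 24 h than the mean of the neighbours and none was lower, beside 5.53% and 3.01% of all genes. The median difference was 1.08. In 13 of the 15 24 h was within 2-fold of 48 h, and 1 of the 28 was above both neighbours. The Chlorophyll a-b binding protein 13 hit (TR20636|c0_g2) stood at 2020.1, 3.08, 609 and 616 and the LHCII type III hit (TR32853|c2_g2) at 1944, 2.45, 337 and 334. Both were far lower at 12 h than at any other time and close at 24 and 48 h, below 0 h. With the neighbours' levels averaged before the log, 5 antenna genes were higher in place of 15.

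Of 74 photosystem core and electron transport genes 14 (18.9%) were higher than the mean of the neighbours and 3 (4.05%) were lower. The shares of all genes were 5.53% and 3.01%. In this list 1 (1.35%) was above both and 2 (2.70%) below both, beside 1.51% and 0.690% of all genes. The list's median difference was 0.20, and 28 members had a difference below 0. Of 29 Calvin cycle and photorespiration genes 7 (24.1%) were higher and 1 (3.45%) was lower, beside the same shares of all genes. None of the 29 was beyond both, which a list this short can give at the shares of all genes, and the median was 0.46. The genes of these lists with the largest differences were also lowest at 12 h. Ferredoxin-1 (TR69204|c0_g1), an electron carrier, stood at 223, 0, 83.0 and 82.1, and Photosystem I subunit O (TR85656|c1_g1) at 3936, 32.2, 666 and 387. The Rubisco activase hits (TR86921|c9_g1 and TR86998|c0_g1), which keep the carbon-fixing enzyme active, stood at 7713, 31.0, 5987 and 8364 and at 43.8, 0, 42.4 and 33.9. The activases were back near their 0 h levels at 24 h, and the photosystem genes were not.

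The clock list had 29 of 81 genes (35.8%) higher than the mean of the neighbours and 10 (12.3%) lower, beside 5.53% and 3.01% of all genes. All 29 were within 2-fold of 48 h. None of the 81 was above both neighbours and 1 (1.23%) was below both, beside 1.51% and 0.690% of all genes. The LHY hit (TR49676|c1_g3), a morning clock repressor in Arabidopsis, stood at 383, 0.70, 494 and 475. The CONSTANS-LIKE 2 hit (TR84404|c0_g1) stood at 147, 0.20, 173 and 114. The UVR8 hit (TR24452|c0_g1), named for the UV-B receptor and not a member of the list, stood at 314, 0.40, 251 and 168. Their levels at 0, 24 and 48 h lay within 2-fold of each other and only 12 h was low. By subgroup 11 of 14 REVEILLE and LHY hits, 7 of 10 cyclic dof factors and 11 of 29 CONSTANS and CONSTANS-like hits were higher. Of the same subgroups no REVEILLE or LHY hit, 2 cyclic dof factors and 2 CONSTANS and CONSTANS-like hits were lower. Of 8 APRR pseudo-response regulators none was higher and 2 were lower. In the other direction the GIGANTEA hit (TR32264|c0_g2) stood at 25, 212, 33.2 and 28.1, and the EARLY FLOWERING 4 hit (TR49144|c0_g1) at 0.83, 100.1, 1.94 and 0.72. These evening genes of the Arabidopsis clock, both chosen after their values were seen, were high at 12 h alone.

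**Figure D4:**
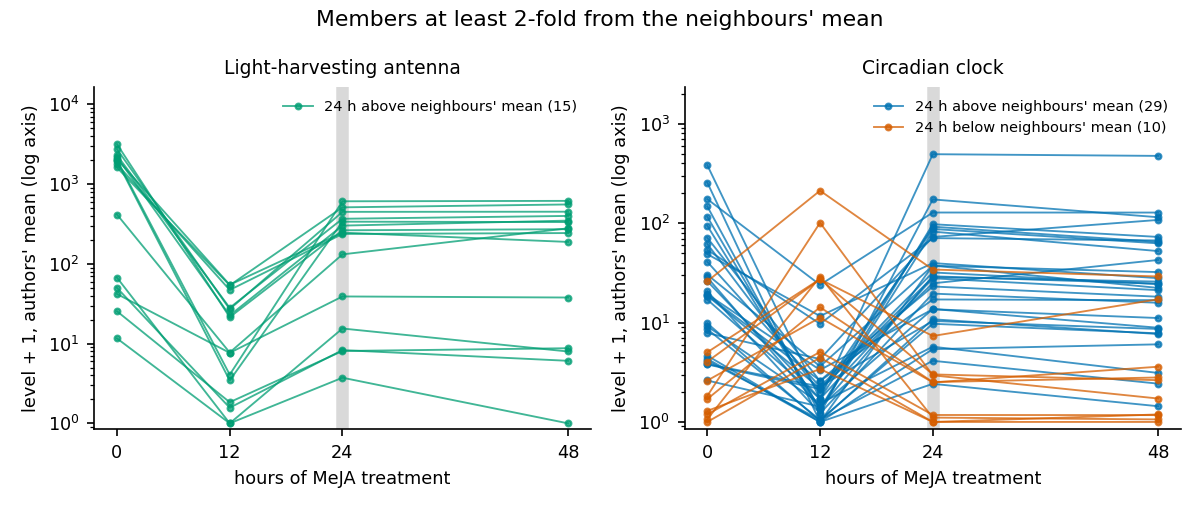
Level + 1 (the authors' mean, log axis) against hours of MeJA treatment for the antenna and clock genes at least 2-fold from the mean of their neighbours at 24 h, 1 line per assembled gene, blue or green where 24 h is higher and orange where it is lower. At 12 h all 15 antenna genes and 25 of the 29 higher clock genes were 2-fold or more below 0 h, and the 10 lower clock genes were above it. At 24 h 13 of 15 antenna genes, all 29 higher and 9 of 10 lower clock genes were within 2-fold of 48 h.

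Cytosolic ribosomal protein genes had small differences, mostly in 1 direction. Of 310 kept, 269 (86.8%) had a difference below 0, beside 13938 of all 29399 genes. Of the 310, 2 (0.645%) passed the rule upwards and 6 (1.94%) downwards, beside 5.53% and 3.01% of all genes. The list's median difference was -0.36, with 24 h at 0.96 below 12 h and 0.26 above 48 h at the median. The 40S ribosomal protein S3a hit (TR5808|c0_g1) stood at 52.9, 106.7, 26.5 and 29.7, and the 60S ribosomal protein L15-2 hit (TR81337|c0_g1) at 44.8, 52.0, 11.8 and 12.4. In both, 24 h lay close to 48 h. In the cell cycle and histone list 2 of 130 genes (1.54%, beside 1.51% of all genes) were above both neighbours, and both lie on 1 component. The more abundant was a Histone H1 hit (TR23636|c0_g1), at 95.2, 85.4, 285 and 140 at 0, 12, 24 and 48 h, which packs DNA between nucleosomes. The Kinesin-like protein KCA2 hit (TR18736|c0_g1), a motor protein, was level with 48 h at 30.4, 0.92, 21.1 and 17.6.

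Dips at 24 h were fewer, at lower levels, and often in 1 piece of a component. Of the 203 genes below both neighbours, 76 were listed at 0 at 24 h and 38 had a mean of at least 10 over the 3 treated times. The deepest was an isoflavone reductase-like hit (TR13440|c4_g1), with levels of 2.97, 95.6, 0 and 51.7 and a difference of -6.16. Another gene of the same component with the same name (TR13440|c4_g3, chosen after its values were seen) stood at 6.66, 1424, 2739 and 1928, highest at 24 h, and the sum of the pieces had a difference of 0.66. Likewise the inorganic pyrophosphatase 1 hit (TR61981|c5_g3) stood at 79.5, 86.0, 0.0033 and 0, while its sister (TR61981|c5_g1, also chosen afterwards) stood at 222, 756, 1847 and 1151. Summed, the pyrophosphatase had a difference of 0.91 in place of -3.22. How the authors' counting divided reads between such pieces was not tested.

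Other deep differences came mostly from a high 12 h level. The cytochrome P450 CYP72A219 hit (TR79615|c17_g2) stood at 3.52, 1291, 0 and 0, beside a gene of the same component named ETHYLENE RECEPTOR 1 (TR79615|c17_g1, chosen afterwards) at 19.1, 4660, 3982 and 4786. The Bifunctional epoxide hydrolase 2 hit (TR35027|c1_g3) stood at 0.13, 351, 2.11 and 0.99. A hit to the chloroplast post-illumination fluorescence protein (TR73169|c1_g1) stood at 3.63, 112, 0.97 and 2.85. On the log2(level + 1) scale none of these 3 was 1 or more below 48 h at 24 h. The last came close, with a step of -0.96 from 48 h.

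**Figure D5:**
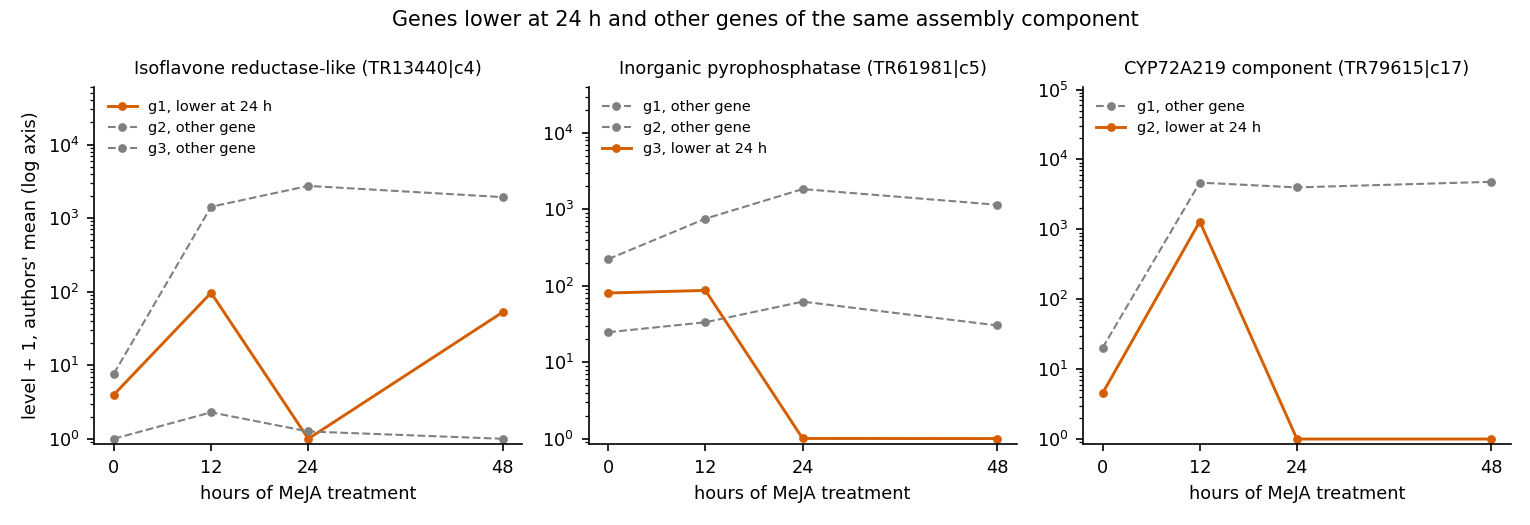
Level + 1 (the authors' mean, log axis) against hours of MeJA treatment for 3 assembly components, with the gene lower at 24 h in orange and the other genes of the component dashed in grey. In each component the orange line drops to near 0 at 24 h while a grey line is at 1847 or more.

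The other named dips were shallower. The GDSL esterase hit (TR12898|c0_g1), of a lipase family, stood at 16.6, 46.8, 13.7 and 153, and the ZINC INDUCED FACILITATOR-LIKE 1 hit (TR19732|c0_g1), a membrane transporter, at 0.86, 12.4, 2.90 and 15.8. Both were at their highest at 48 h. The Actin-85C hit (TR50378|c0_g1) stood at 24.3, 16.3, 4.76 and 19.4 and the Signal peptide peptidase hit (TR73543|c0_g1) at 7.77, 13.4, 4.11 and 20.6. The actin's component holds another gene (TR50378|c0_g4, a tyrosine-protein phosphatase hit chosen afterwards) at 47.5, 30.9, 139 and 92.8, highest at 24 h. The wax and lipid transfer list had most dips among the lists drawn, 5 of 99 (5.05%) below both neighbours, beside 0.690% of all genes. A further 2 (2.02%) were above both, beside 1.51%. One of the 5 dips was the ECERIFERUM 1 hit (TR85629|c1_g3, chosen afterwards), a wax enzyme, at 5.74, 5.32, 0.15 and 4.38.

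Of the 444 peaks 158 (35.6%) and of the 203 dips 95 (46.8%) had no database hit, beside 19.3% of all kept genes. The share of genes above both neighbours was 2.02% at a treated mean of 1 to 5, 1.02% at 10 to 100 and 2.23% at 100 or more, and the share below both was 1.22%, 0.368% and 0.239% in those ranges. Genes sharing their component with another kept gene made up 43.9% of the peaks and 50.2% of the dips, beside 37.7% of all kept genes.

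Of 50 lists with at least 5 members, 24 had no member above both neighbours, 33 none below both and 17 none beyond both either way, and 48 had a median difference between -0.5 and 0.5. Markers of other tissues and cell types had no member above both neighbours: none of 30 flower, 22 epidermis and trichome, 25 guard cell, 5 phloem and xylem or 4 root genes was, and 1 guard cell gene was below both. Lists this short can hold none at the shares of all genes, 1.51% above both and 0.690% below both. By the mean of the neighbours, 5 of the flower genes (16.7%) were higher and 1 was lower, beside 5.53% and 3.01% of all genes. The epidermis and trichome markers had none higher and 1 lower, guard cell 1 and 2, phloem and xylem 1 and none, and root none and 1. The flower markers summed to 1809, 722, 1496 and 1160 at 0, 12, 24 and 48 h, lowest at 12 h. Their part in the results was not tested. The summed level of the 4 root genes ran from 26.9 to 46.4 over the 4 times. That of the antenna genes was 36215, 1012, 5792 and 6449 at 0, 12, 24 and 48 h, so the markers of green leaf were present at every time and highest at 0 h. The deposited columns summed to 866243, 973347, 965390 and 932776 at those times.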

How the data were processed

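Per the labels' protocols, mRNA was enriched from total leaf RNA and read in pairs on an Illumina HiSeq, with strand kept. The authors deposited a table with an expression signal for each assembled gene at each time. All 128256 deposited values are multiples of 0.001 divided by 3, within 0.01 of a step, as a mean of 3 values would be, so the authors averaged the 3 replicates. Tools named in the submitters' processing notes, without roles, are RSEM 1.2.19, Trimmomatic 0.33, FastQC 0.11.3 and CASAVA. Neither the unit of the signal (TPM, FPKM or another) nor the assembler, aligner or reference is given in the sources used here. Genes are called by their best hit in Swiss-Prot (20219 genes) or, failing that, TrEMBL (5133), which is similarity only, and 6712 have no hit. An assembled gene can be a piece of a gene, and pieces of 1 component can share reads. No position or sequence could be joined to the genes. Another row was emptied before use.

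From the signal, log2(level + 1) differences were computed with Python 3.11.15, pandas 2.3.3 and numpy 2.4.6, for genes whose highest level was at least 1. The scale understates differences of low genes. Because the table holds means, the fold threshold of 2 replaced any test, there is no p-value, SD or interval, and the planned fits per library were not run. The scripts were tested on simulated data.

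The comparison, its 51 gene lists (18 of them main lists, 5 of them markers of other tissues or cell types) and the rules were chosen with earlier results of these data known. Name patterns of 19 lists were corrected for wrong matches after their values were seen, and 1 further list, membrane lipid remodelling, was chosen afterwards. Lists are described by counts and medians only. The rule for named genes takes annotated genes with a mean of at least 10 over the 3 treated times, 1 per component and name: the 5 highest and 5 lowest differences, the 5 largest smaller steps above both and below both neighbours, and the 2 members of each main list with the largest difference. It named 50 different genes among 8304. Other pseudocounts, filters, scalings, averages of the neighbours, steps and sums of pieces were tried.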

Additional observations from a re-analysis of the deposited data

How the results depend on the processing

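The scalings to equal sums and by median of ratios kept the 4 counts of genes and 6 counts of list members within 1.5 times: those above both neighbours for phosphate supply, small auxin-induced, WRKY and heat shock genes, and those higher than the mean for antenna and clock genes. Counts of other lists and of subgroups were not recomputed. Both scalings moved the median of all genes by less than 0.1. Counts depended on the pseudocount. With 0.1, 3236 genes were higher and 2314 lower than the mean of the neighbours, 972 were above both and 784 below both. With 10 these were 438, 91, 85 and 8, and the members above both numbered 6 for phosphate supply, 3 for small auxin-induced genes, 2 for WRKY and 3 for heat shock, with 14 clock genes higher than the mean. With a level of at least 10 required, 13920 genes remained. Of these 441 (3.17%) were lower than the mean, 239 (1.72%) above both and 71 (0.510%) below both. In the main setting the shares were 3.01%, 1.51% and 0.690%. With that level required, 2 WRKY genes were above both. Averaging the neighbours' levels before the log gave 1059 higher and 1460 lower genes and 5 higher antenna genes. Weighting the neighbours by a straight line in hours gave 1438 lower genes. A step of 0.5 gave 1769 genes above both and 830 below both, and a step of 2 gave 58 and 17. Without the filter on low levels the 4 counts of genes were the same, as they had to be. A gene with all levels below 1 cannot reach a difference or step of 1 on the log2(level + 1) scale.

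Of 450 values of the 50 named genes under these alternatives, 423 kept their call and 3 turned their direction, all with pieces of a component summed: the isoflavone reductase-like gene to 0.66, inorganic pyrophosphatase 1 to 0.91 and Solanesyl diphosphate synthase 1 to 0.20. For the other changes the cause was not tested. The 450 include the settings without the filter and with a level of at least 10 required. Those settings cannot move a named gene's value, so all 50 kept their call under each.

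No paired analysis was possible because the columns are means that carry no replicate number. The planned replicate block and the fits without each replicate in turn were therefore not run, so whether 1 library decides a 24 h mean cannot be seen from these values. The depth behind each level is unknown.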

Other observations

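Aquaporins, channels that carry water across membranes, were not described above. Of 41 genes kept, 12 (29.3%) were higher at 24 h than the mean of 12 and 48 h and 2 (4.88%) were lower, beside 5.53% and 3.01% of all genes. None was beyond both neighbours, and the median difference was 0.28. In 10 of the 12 higher genes 24 h was within 2-fold of 48 h, beside 63.8% of all higher genes. An Aquaporin PIP2-4 hit (TR39501|c0_g2) had levels of 72.8, 4.01, 81.9 and 73.4 at 0, 12, 24 and 48 h, and an Aquaporin PIP2-7 hit (TR44285|c0_g1) 511, 38.5, 45.6 and 8.08. The first was back at its 0 h level by 24 h, while the second was lower at each later time than at 0 h. Both were chosen after their values were seen.

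None of 45 proteasome subunits, which degrade tagged proteins, was 2-fold from the mean of its neighbours at 24 h. Of all genes 5.53% were higher and 3.01% lower. The list's median difference was 0.09. Of 85 respiratory chain genes 1 (1.18%) was higher and none lower, beside the same shares of all genes, with a median difference of 0.09. A hit to Protein HEADING DATE 3A (TR49666|c2_g1, chosen after its values were seen), a florigen of rice, was above both neighbours, with levels of 1449, 130, 636 and 310 at 0, 12, 24 and 48 h.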
